A study of Mus musculus with 18 samples.

Results

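The genes of ribosome biogenesis and RNA polymerase I were examined in mouse brown adipocytes in which lipolysis, the release of fatty acids from stored triglyceride, had been switched on or blocked. The genes were chosen by symbol, with earlier results of these data known. They are the Utp, Nop, Nol, Rrp and Rpp genes with a number in the name, the 5 genes Polr1a to Polr1e, and Bop1, Pes1, Nip7, Gar1, Dkc1, Fbl, Ncl, Npm1, Imp3, Imp4 and Myc. The rule found 57 of the 20295 genes in the table, and 55 of them had enough counts to be tested among 12156 tested genes. The other two were Rpp25, with 1 to 10 counts in a library, and Nol4, with 0 to 5 counts. By known role, 5 encode subunits of RNA polymerase I, 20 belong to the small subunit processome, 3 to box C/D and 3 to H/ACA snoRNPs, 13 to large subunit assembly and 7 to RNase P and RNase MRP. Ncl and Npm1 encode abundant nucleolar proteins, and Myc encodes a transcription factor. Nol3, Nol4 and Nol4l matched by name only and have no established part in making ribosomes.

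The cells were BAT-LgT cells, a wild type line of brown preadipocytes that carries the large T antigen of SV40 and was differentiated in culture, so all values come from 1 cell line without the other cells of brown fat. On day 7 the cells were given inhibitors of the lipases ATGL and HSL for 1 h, or none, and for the next 3 h received DMSO (Vehicle), SR-3420 or 100 nM isoproterenol (ISO). ISO is an agonist of all β-adrenergic receptors. SR-3420 binds ABHD5, frees it from perilipin and thereby activates ATGL without a receptor signal. The labels give 10 µM SR-3420, the text of the study gives another dose, and the difference was not settled here. Cells without inhibitors formed the groups Vehicle, ISO and SR-3420. Those with inhibitors were named Lipase Inh. + SR-3420, Lipase Inh. + ISO and Lipase Inh. + Vehicle, and each of the 6 groups had 3 samples from independent experiments.

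Ribosomes are made in the nucleolus. RNA polymerase I transcribes a long precursor RNA, which snoRNPs modify and which the small subunit processome, RNase MRP and many assembly factors cut and fold into the RNAs of both ribosomal subunits. The process consumes much of the energy of a growing cell, and the transcription factor Myc is known to activate many of its genes. Messenger RNA for the machinery was measured here, not ribosomal RNA or ribosomes.

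Total counts lay between 10310447 and 21205032 in 17 libraries. Replicate 2 of Lipase Inh. + SR-3420 had only 4263755 counts, and Lars2 alone took 18.34% of them, against at most 0.1207% in the others. In bulk samples, fewer cells of a type and less RNA per cell cannot be told apart, and p-values measure the spread between these samples. Values are in CPM, the counts of a gene brought to one common library size, after scaling each library by its TMM factor, and a gene was called higher or lower when the quasi-likelihood test of edgeR gave an adjusted p of at most 0.05. With libraries scaled to total counts alone, the median log2 change of all tested genes moved from -0.02 to -0.33 for ISO against Vehicle, from -0.02 to -0.18 for SR-3420 against Vehicle, and from -0.01 to -0.24 for ISO under inhibitors. All 9 adipocyte markers chosen were detected, among them the brown adipocyte genes Ucp1, Cidea and Prdm16. Their sum lay between 7373 and 8135 CPM in Vehicle, 8497 and 9952 CPM in ISO, and 7106 and 7540 CPM in SR-3420, and its part in the results was not tested. The general adipocyte genes Adipoq and Fabp4 were the largest parts of that sum, at means of 3593 and 2603 CPM in Vehicle, where Ucp1 averaged 2.69 CPM. The sum therefore says little about brown identity. Summed proliferation markers lay between 888 and 1254 CPM in every library, with overlapping ranges in the 6 groups. Markers of fibroblasts or preadipocytes summed to 146 to 187 CPM in Lipase Inh. + ISO and 225 to 245 CPM in SR-3420, and to at most 250 CPM elsewhere. How many cells had stayed undifferentiated was not tested. Macrophage markers summed to at most 6.30 CPM, and 1 of the 4 was at 0 in all libraries.

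Per kilobase of counted length, the level of the 57 genes spanned a wide range. Averaged over the 18 samples, Npm1, a histone and ribosomal protein chaperone, had the highest level at 107 CPM per kb. Nop10, a small H/ACA protein, stood at 90.2 CPM per kb and Polr1d, a subunit shared by RNA polymerases I and III, at 69.03 CPM per kb. Myc stood at 41.4 CPM per kb. Among the polymerase subunits, Polr1a, the largest, was at 13.99 CPM per kb and Polr1e at 1.81 CPM per kb. In the box C/D snoRNP, Nop56 was at 39.7 CPM per kb, Nop58 at 14.9 and the methyltransferase Fbl at 6.23. The name matches Nol3, Nol4l and Nol4 were at 0.491, 0.844 and 0.0183 CPM per kb. The highest counts per counted base were 2.42 for Npm1 and 2.18 for Nop10, and 8 members exceeded 1 count per base in a library. The authors kept only 1 read per position and length, and whether this limited the counts of such genes was not tested. Npm1 also has processed copies elsewhere in the genome, and how reads were divided among copies was not given in the sources used here, so its level is uncertain.

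The first comparison asked how β-adrenergic stimulation changes these genes. Most of them were higher with ISO under TMM scaling, and this depended on the scaling. Of 55 members, 33 were higher with ISO than with Vehicle and 4 were lower, where 26.8% of all tested genes were higher and 25.0% lower. The median log2 change was 0.34 over the members and -0.02 over all tested genes. With total counts alone, 14 members were higher and 13 lower, with a median of 0.04 beside -0.33 for all tested genes, of which 12.3% were then higher and 49.4% lower. A change of at least 2-fold was called higher for 5 members, Rrp12, Rpp38, Utp14b, Nop58 and Nop2, and lower for 1, Rpp21. Over all tested genes 5.03% were higher and 4.07% lower by this rule. The CPM of all members summed to 2245 ± 68.01 (SD, n = 3) in Vehicle and 2984 ± 239 (SD, n = 3) in ISO.

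SR-3420 gave a like picture without a receptor signal, read against the same Vehicle samples. With SR-3420, 30 members were higher and 6 lower, beside 26.0% and 25.4% of all tested genes. The median log2 change was 0.31 over the members and -0.02 over all. Under total counts alone, 19 were higher and 9 lower, beside 16% and 35.9% of all tested genes. Without Vehicle replicate 1, 3 members were lower in place of 6. By the 2-fold rule Rpp38, Rrp12 and Nop58 were higher and Rpp21 was lower, beside 3.97% and 2.37% of all tested genes. The members summed to 2879 ± 122 CPM (SD, n = 3).

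**Figure D1:**
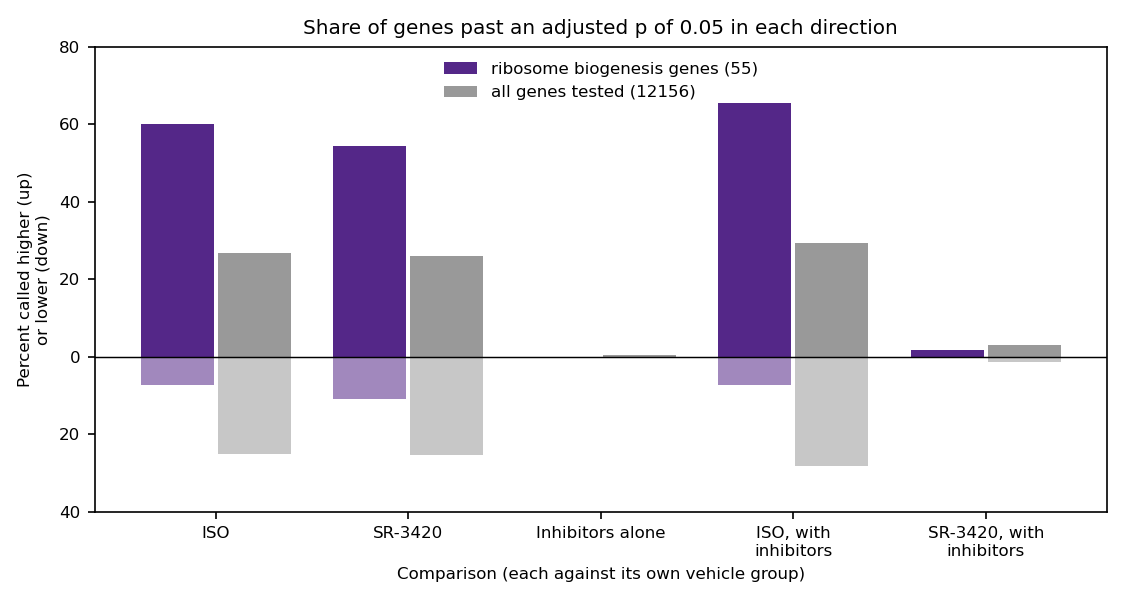
Bars give the percentage of genes called higher (above zero) or lower (below zero) at an adjusted p of at most 0.05, for the 55 ribosome biogenesis genes (purple) and all 12156 tested genes (grey), for inhibitors alone against Vehicle and for each stimulus against the vehicle group with the same inhibitor treatment. With ISO, SR-3420 and ISO under inhibitors, 60%, 54.5% and 65.5% of the members were higher, and with SR-3420 under inhibitors 1.82%, while total counts alone lowered the first 3 counts from 33, 30 and 36 members to 14, 19 and 20.

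The lipase inhibitors alone moved few genes, and no member was called. Over all tested genes 0.485% were higher and 0.428% lower with Lipase Inh. + Vehicle than with Vehicle. The tests with edgeR and DESeq2 each called 0 members, DESeq2 among the 42 to which it gave an adjusted p, and 6 members had an unadjusted p of under 0.05 in edgeR. Without Vehicle replicate 2, 1 member was called higher. The members ranged from -0.48 to 0.38 in log2 change.

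Under inhibitors the 2 stimuli parted. With ISO 36 members were higher and 4 lower than in Lipase Inh. + Vehicle, beside 29.4% and 28.3% of all tested genes, and the median log2 change was 0.41 beside -0.01 for all. When total counts alone set the scale, 20 were higher and 6 lower, beside 16.2% and 42.1% of all tested genes. By the 2-fold rule Rrp12, Nop2 and Rrp1b were higher and Rpp40 was lower, where 5.43% and 7.63% of all tested genes passed. With SR-3420 under inhibitors only Myc was called, higher, and 0 members were lower, beside 2.99% and 1.36% of all tested genes. Scaled by total counts only, no member was called, and Myc had an adjusted p of 0.0503 (edgeR). DESeq2 called the same 1 member higher, and 3 members had an unadjusted p of under 0.05 in edgeR. The summed level was 2982 ± 145 CPM in Lipase Inh. + ISO, 2196 ± 56.6 CPM in Lipase Inh. + SR-3420 and 2196 ± 2.52 CPM in Lipase Inh. + Vehicle (SD, n = 3 each).

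The interaction, the effect of a stimulus with inhibitors minus its effect without, tests this dependence on lipase activity. For SR-3420 it was lower for 17 members and higher for 0 (edgeR and DESeq2; 31 members had an unadjusted p of under 0.05 in edgeR), beside 14.8% and 12.5% of all tested genes. The median log2 interaction was -0.31 over the members and 0.01 over all. At 2-fold, Rpp38, Rrp12, Nop58 and Utp14b were lower, where 2.42% of all tested genes were. Without Vehicle replicate 3, or without Lipase Inh. + SR-3420 replicate 3, 1 member was higher. Without the shallow library Lipase Inh. + SR-3420 replicate 2 the count of lower members was 18. For ISO the interaction was higher for 8 members and lower for 6, beside 14.9% and 16.6% of all tested genes, so its shares lay near or below the background. At 2-fold Rpp21 was higher and Rpp38 and Myc were lower, beside 2.18% and 4.71% of all. The count of 8 was 4 without Vehicle replicate 1 and 5 without Lipase Inh. + ISO replicate 2. The difference between both interactions, ISO minus SR-3420, a contrast chosen after the data were seen, was higher for 21 members and lower for 3, beside 17.4% and 16.9% of all tested genes.

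**Figure D2:**
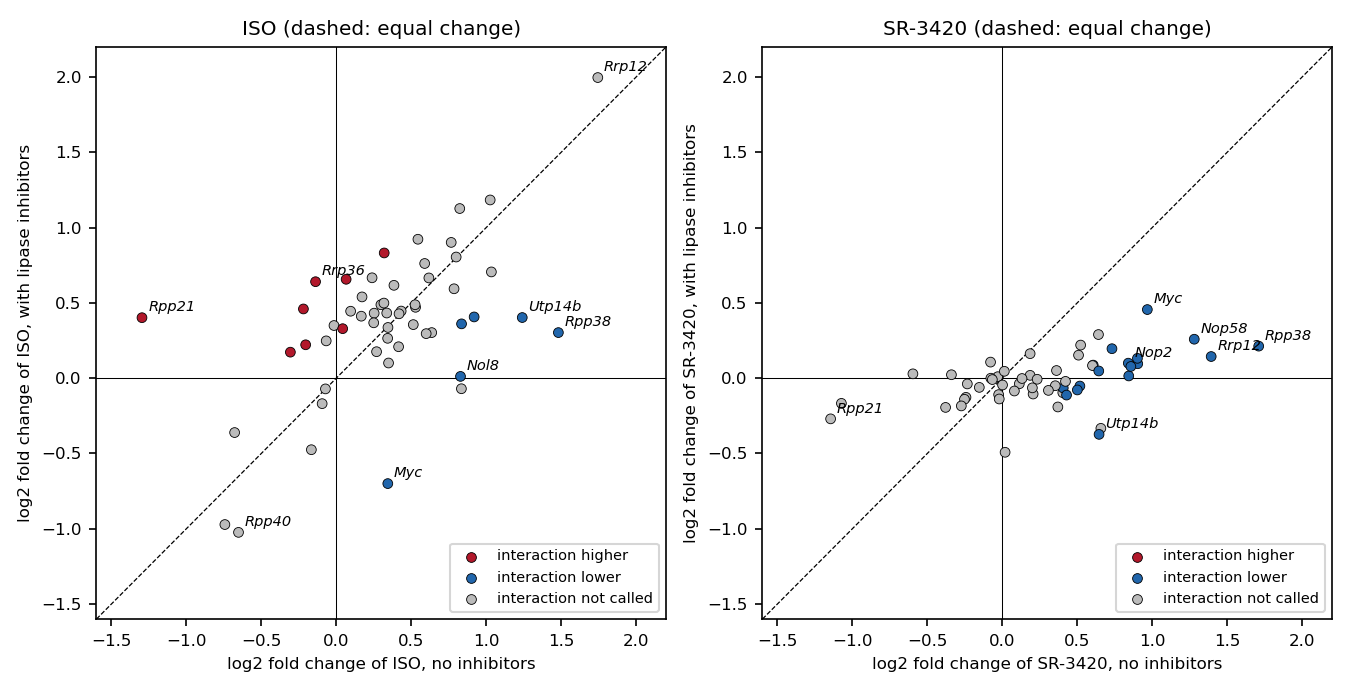
Each point is 1 of the 55 tested members, placed by its log2 fold change against the matching vehicle group without inhibitors (horizontal axis) and with lipase inhibitors (vertical axis), for ISO (left) and SR-3420 (right); colour gives the call of the interaction. With SR-3420 the vertical values lie between -0.49 and 0.46, while Rrp12 lies near the dashed line for ISO, at 1.75 and 2.00.

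ISO and SR-3420 were also compared directly, and the shares of members called lay near or below those of all tested genes. Against SR-3420, 8 members were higher with ISO and 3 lower, beside 15.8% and 13.9% of all tested genes. The 3 lower were Myc, Utp3 and Nol4l. This comparison depended on single libraries and on scaling. The count of 8 was 3 without ISO replicate 1, 2 without ISO replicate 2, 2 without SR-3420 replicate 1, 2 without SR-3420 replicate 3, 4 without Lipase Inh. + Vehicle replicate 1 and 5 without Lipase Inh. + ISO replicate 1. With total counts alone 2 were higher and 7 lower, beside 6.38% and 25% of all tested genes.

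**Figure D3:**
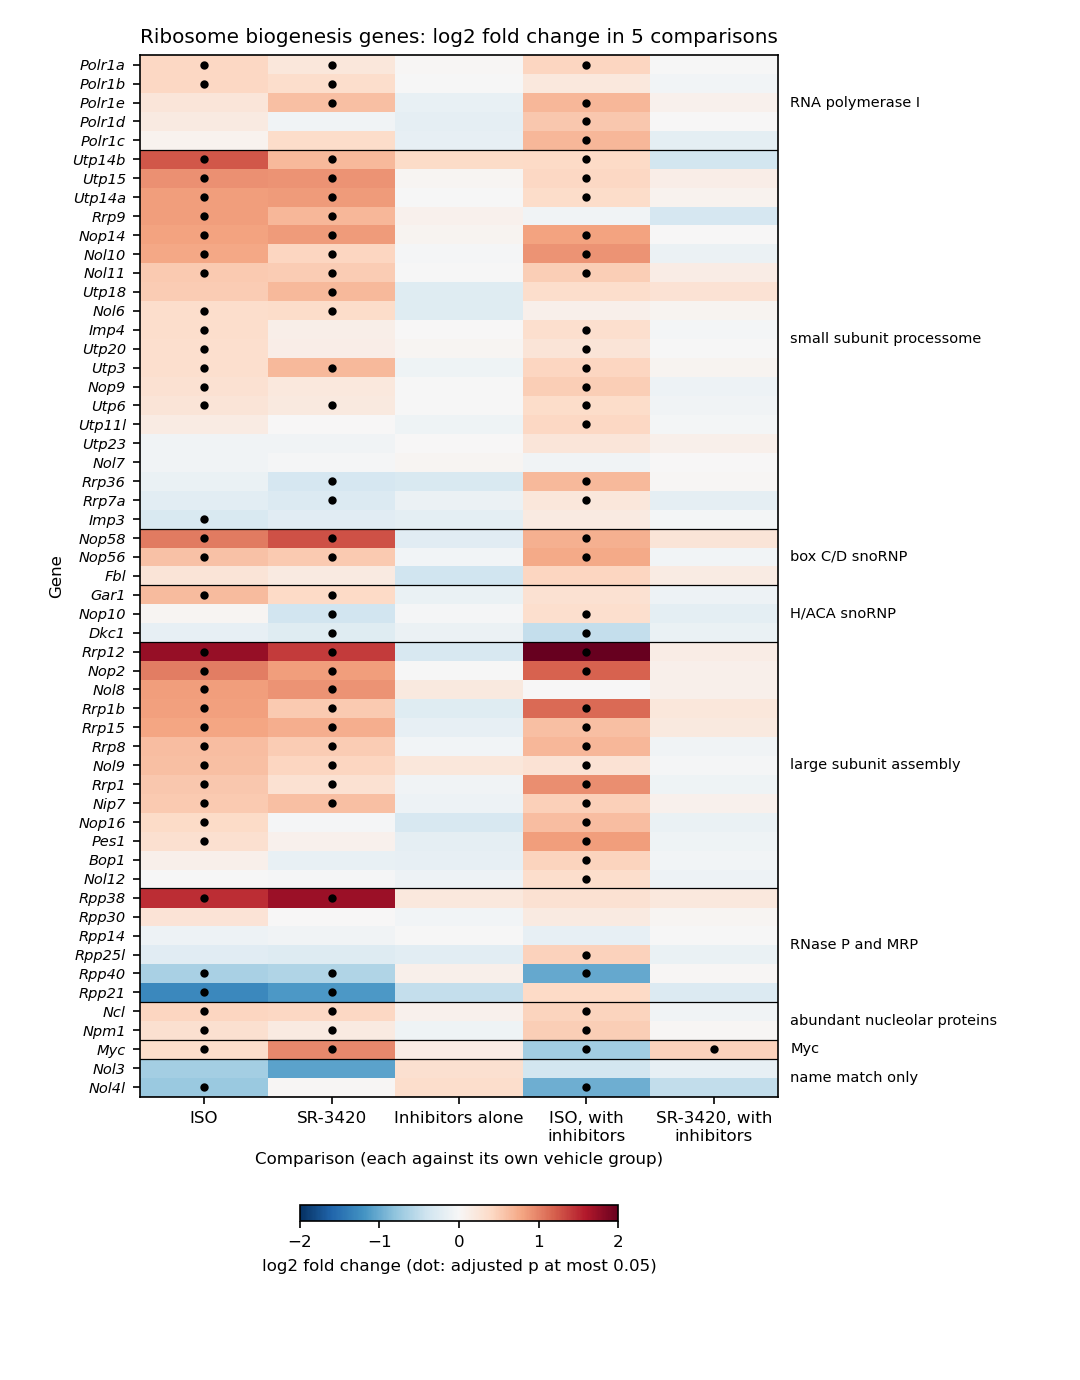
Rows are the 55 tested members grouped by role and ordered by their change with ISO, columns are 5 comparisons each against its own vehicle group, and colour gives the log2 fold change with a dot where the adjusted p was at most 0.05. Dots fill much of the columns of ISO, SR-3420 and ISO with inhibitors, are absent for inhibitors alone, and stand only at Myc for SR-3420 with inhibitors.

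Most factors of large subunit assembly were higher. Of 13, 11 were higher with ISO, 9 with SR-3420 and 12 with ISO under inhibitors, and 0 were lower in these comparisons, where 26.8%, 26.0% and 29.4% of all tested genes were higher. Rrp12, a factor of subunit maturation and nuclear export at chr19:41937341-41970643 (mm9, minus strand), gave the largest rise with ISO of all members. Its level was 12.8, 11.4 and 10.9 CPM in Vehicle, 35.0, 49.2 and 34.2 CPM in ISO, and 30.6, 35.8 and 26.9 CPM in SR-3420. Every stimulated sample lay above every Vehicle sample. Under inhibitors it was 8.60, 9.72 and 10.1 CPM with Vehicle, 37.3, 42.7 and 34.0 CPM with ISO, and 9.28, 11.5 and 11.1 CPM with SR-3420. So ISO stood apart from Vehicle under inhibitors too, while SR-3420 overlapped with it. The log2 change was 1.75 ± 0.14 (SE) after ISO (adjusted p = 1.48e-09, edgeR) and 1.39 ± 0.14 after SR-3420. Under inhibitors the log2 change was 2.00 ± 0.15 after ISO and 0.14 ± 0.17 after SR-3420. The interaction was -1.25 ± 0.22 for SR-3420 (adjusted p = 0.000229, edgeR) and 0.25 ± 0.20 for ISO (adjusted p = 0.38, edgeR).

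Nop2, an RNA methyltransferase of the large subunit, was also higher with ISO, with SR-3420 and with ISO under inhibitors. It measured 64.5, 50.3 and 55.7 CPM in Vehicle, 118, 128 and 101 CPM in ISO, and 99.9, 107 and 98.7 CPM in SR-3420. Under inhibitors it measured 56.5, 56.6 and 56.4 CPM with Vehicle, 129, 141 and 115 CPM with ISO, and 62.8, 59.96 and 58.8 CPM with SR-3420. All stimulated groups lay above their vehicle samples, that of SR-3420 under inhibitors by the least and without a call. On the log2 scale the change was 1.03 ± 0.09 (SE) with ISO, 0.84 ± 0.09 with SR-3420 and 1.18 ± 0.09 with ISO under inhibitors. Rrp1b, of the nucleolar Rrp1 family, rose by 0.82 ± 0.10 after ISO and by 1.13 ± 0.10 after ISO under inhibitors on the log2 scale.

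The PeBoW proteins Pes1 and Bop1, which work together in large subunit maturation, were called in different comparisons. Pes1 was higher with ISO by 0.32 ± 0.11 (SE, log2; adjusted p = 0.0228, edgeR) and under inhibitors by 0.83 ± 0.11, with an interaction of 0.51 ± 0.16. The adjusted p of that interaction, 0.0182 (edgeR), was 0.0614 without Vehicle replicate 1, 0.0539 without ISO replicate 3 and 0.0566 without Lipase Inh. + ISO replicate 2. Leaving out Vehicle replicate 2 or 3, or ISO replicate 2, raised its adjusted p for ISO to between 0.0503 and 0.214, and scaling by total counts alone gave a change of 0.01 with an adjusted p of 0.941 (edgeR). Bop1 changed by 0.10 ± 0.11 with ISO (adjusted p = 0.478, edgeR) and rose by 0.45 ± 0.11 with ISO under inhibitors, which was 0.22 and not called by total counts alone (adjusted p = 0.0842, edgeR). Nol8, a nucleolar protein chosen here after its values were seen, was not called under inhibitors with either stimulus. Its log2 change was 0.83 ± 0.09 with ISO, 0.90 ± 0.09 with SR-3420, 0.01 ± 0.09 with ISO under inhibitors and 0.10 ± 0.09 with SR-3420 under inhibitors (SE). The interactions were -0.82 ± 0.13 and -0.81 ± 0.13.

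The small subunit processome, the particle that makes the first cuts towards the small subunit, had 13 of 20 members higher and 1 lower with ISO. With SR-3420, 11 were higher and 2 lower. With ISO under inhibitors 14 were higher and 0 lower, and for SR-3420 the interaction was lower for 6. Of all tested genes 26.8%, 26.0% and 29.4% were higher in the 3 comparisons, and 14.8% had a lower interaction. Utp14b, a copy of Utp14a that arose by retroposition, measured 21.04, 34.1 and 27.6 CPM in Vehicle and 65.9, 72.6 and 55.8 CPM in ISO. In SR-3420 it measured 43.6, 46.4 and 39.2 CPM, between the Vehicle and ISO samples and apart from both. Under inhibitors it measured 36.9, 36.7 and 33.7 CPM with Vehicle, 54.3, 43.5 and 44.4 CPM with ISO, and 28.7, 29.0 and 25.8 CPM with SR-3420. The SR-3420 samples then lay below the vehicle samples, at a log2 change of -0.37 ± 0.14 (SE; adjusted p = 0.164, edgeR). Its log2 change was 1.24 ± 0.13 after ISO and 0.65 ± 0.13 after SR-3420. The direct difference between ISO and SR-3420 was 0.60 ± 0.13 (adjusted p = 0.00133, edgeR). The interaction was -0.84 ± 0.19 for ISO and -1.02 ± 0.19 for SR-3420. Under inhibitors the rise with ISO, 0.40 ± 0.13, had an adjusted p of 0.0116 (edgeR), and of 0.0799 without Lipase Inh. + ISO replicate 1. By total counts alone it was 0.18 with an adjusted p of 0.256 (edgeR).

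Utp14b lies inside the span of Acsl3, a fatty acid activating enzyme, on the same strand. Utp14b spans chr1:78654400-78664176 in build mm9, all 9777 bases within Acsl3, and 206 of its 3755 exonic bases (5.49%) in GENCODE are also exonic in Acsl3. Acsl3 changed by 0.54 with ISO, 0.14 with SR-3420, 0.50 with the inhibitors alone, -0.53 with ISO under inhibitors and -0.50 with SR-3420 under inhibitors. Of these, all but the value for SR-3420 were called. Whether Acsl3 reads entered the Utp14b counts was not tested, so the values of Utp14b are uncertain to that extent. Its parent gene Utp14a, on the X chromosome with no overlap, rose by 0.84 ± 0.10 after ISO and 0.86 ± 0.10 after SR-3420, and by 0.36 ± 0.10 with ISO under inhibitors (SE, log2). The last value was 0.14 with an adjusted p of 0.362 (edgeR) by total counts alone. Another 9 tested members overlap a gene on the opposite strand, among them Nol3, with 53.3% of its exonic bases shared, and Nop56, with 0.122%. Whether the counting used strand was not given in the sources used here, so reads from the 2 strands of such stretches cannot be told apart.

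Utp3, a processome subunit, was higher with SR-3420 than with ISO, while Utp15, another subunit chosen after its values were seen, differed between them by less than its error. Utp3 measured 90.1, 79.8 and 81.1 CPM in Vehicle, 112, 97.7 and 108 CPM in ISO, and 130, 135 and 128 CPM in SR-3420. All SR-3420 samples lay above all ISO samples, and the log2 difference of ISO from SR-3420 was -0.31 ± 0.07 (SE; adjusted p = 0.00169, edgeR). Utp15 rose by 0.92 ± 0.09 after ISO and by 0.90 ± 0.09 after SR-3420, with a direct difference of 0.02 ± 0.09. Rrp36, which takes part in early cleavage of the precursor, changed by -0.14 ± 0.12 with ISO and rose by 0.64 ± 0.11 with ISO under inhibitors. Its interaction for ISO was 0.78 ± 0.16 (adjusted p = 0.000758, edgeR).

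Box C/D snoRNPs guide methylation of ribosomal RNA. Of their core proteins, Nop56 and Nop58 rose with ISO, with SR-3420 and with ISO under inhibitors, while Fbl was not called in any comparison. Nop58 measured 17.8, 24.0 and 18.9 CPM in Vehicle, 39.1, 45.5 and 39.4 CPM in ISO, and 49.9, 53.3 and 44.1 CPM in SR-3420. Under inhibitors it measured 17.5, 17.3 and 16.7 CPM with Vehicle, 27.6, 34.6 and 22.6 CPM with ISO, and 20.7, 18.7 and 21.3 CPM with SR-3420. All stimulated samples lay above their vehicle samples, those of SR-3420 under inhibitors by the least. The log2 change was 1.03 ± 0.13 (SE) with ISO, 1.28 ± 0.13 with SR-3420, 0.71 ± 0.14 with ISO under inhibitors and 0.26 ± 0.14 with SR-3420 under inhibitors (adjusted p = 0.411, edgeR). Nop56 rose by 0.59 ± 0.09 with ISO, 0.52 ± 0.09 with SR-3420 and 0.76 ± 0.09 with ISO under inhibitors. Fbl ranged from 5.33 to 8.56 CPM in Vehicle and from 7.47 to 9.66 CPM in ISO, with a log2 change of 0.25 ± 0.20 (adjusted p = 0.308, edgeR). H/ACA snoRNPs guide the conversion of uridine to pseudouridine. Gar1 rose by 0.64 ± 0.15 with ISO. Dkc1, the enzyme of the particle, fell by 0.47 with ISO under inhibitors (log2). Nop10 fell by 0.38 with SR-3420 and rose by 0.33 with ISO under inhibitors. By total counts alone Gar1 changed by 0.33 with ISO (adjusted p = 0.0714, edgeR) and Nop10 by 0.10 with ISO under inhibitors (adjusted p = 0.295, edgeR), and neither was called.

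RNase MRP cuts the ribosomal precursor, and the related RNase P trims tRNA. The protein subunits of these enzymes did not move as a block. Of 6 tested, Rpp38 was higher with either stimulus, and Rpp21 and Rpp40 were lower with each. Of all tested genes 26.8% were higher and 25.0% lower with ISO, and 26.0% and 25.4% with SR-3420. Rpp25l was higher only with ISO under inhibitors, where 29.4% of all tested genes were higher. By total counts alone that change was 0.235 on the log2 scale and not called (adjusted p = 0.142, edgeR). Rpp14 and Rpp30 were called in none of the comparisons with a vehicle group. Rpp38, at chr2:3246221-3249900 on the minus strand of mm9, measured 10.9, 8.81 and 13.1 CPM in Vehicle, 29.8, 30.7 and 30.9 CPM in ISO, and 36.6, 32.6 and 37.7 CPM in SR-3420. Under inhibitors it measured 12.5, 10.7 and 14.4 CPM with Vehicle, 18.5, 14.5 and 14.04 CPM with ISO, and 13.2, 15.2 and 15.6 CPM with SR-3420. Without inhibitors the stimulated samples all lay above Vehicle, and with inhibitors they overlapped with it. On the log2 scale the change was 1.48 ± 0.14 (SE) after ISO and 1.71 ± 0.13 after SR-3420 (adjusted p = 1.06e-09, edgeR). Under inhibitors the log2 change was 0.30 ± 0.14 after ISO (adjusted p = 0.0661, edgeR) and 0.21 ± 0.15 after SR-3420. The interaction was -1.50 ± 0.20 for SR-3420 (adjusted p = 8.7e-06, edgeR) and -1.18 ± 0.19 for ISO.

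Rpp21 moved the other way at a low level, with 7 to 46 counts in a library. It measured 2.34, 2.86 and 3.18 CPM in Vehicle, 1.04, 1.01 and 1.37 CPM in ISO, and 1.25, 0.956 and 1.47 CPM in SR-3420. The stimulated samples lay below every Vehicle sample. Under inhibitors it measured 2.04, 1.73 and 2.14 CPM with Vehicle, 2.79, 2.84 and 2.33 CPM with ISO, and 1.53, 1.87 and 1.65 CPM with SR-3420. Its log2 change was -1.30 ± 0.25 (SE) after ISO and -1.15 ± 0.24 after SR-3420. Under inhibitors it was 0.40 ± 0.23 with ISO (adjusted p = 0.134, edgeR), and the interaction for ISO was 1.70 ± 0.34. Rpp40 fell with ISO whether inhibitors were present or not, by 0.65 and by 1.02 on the log2 scale. Its fall with SR-3420, by 0.60, had an adjusted p of 0.0106 (edgeR), and of 0.0649 without Vehicle replicate 3.

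**Figure D4:**
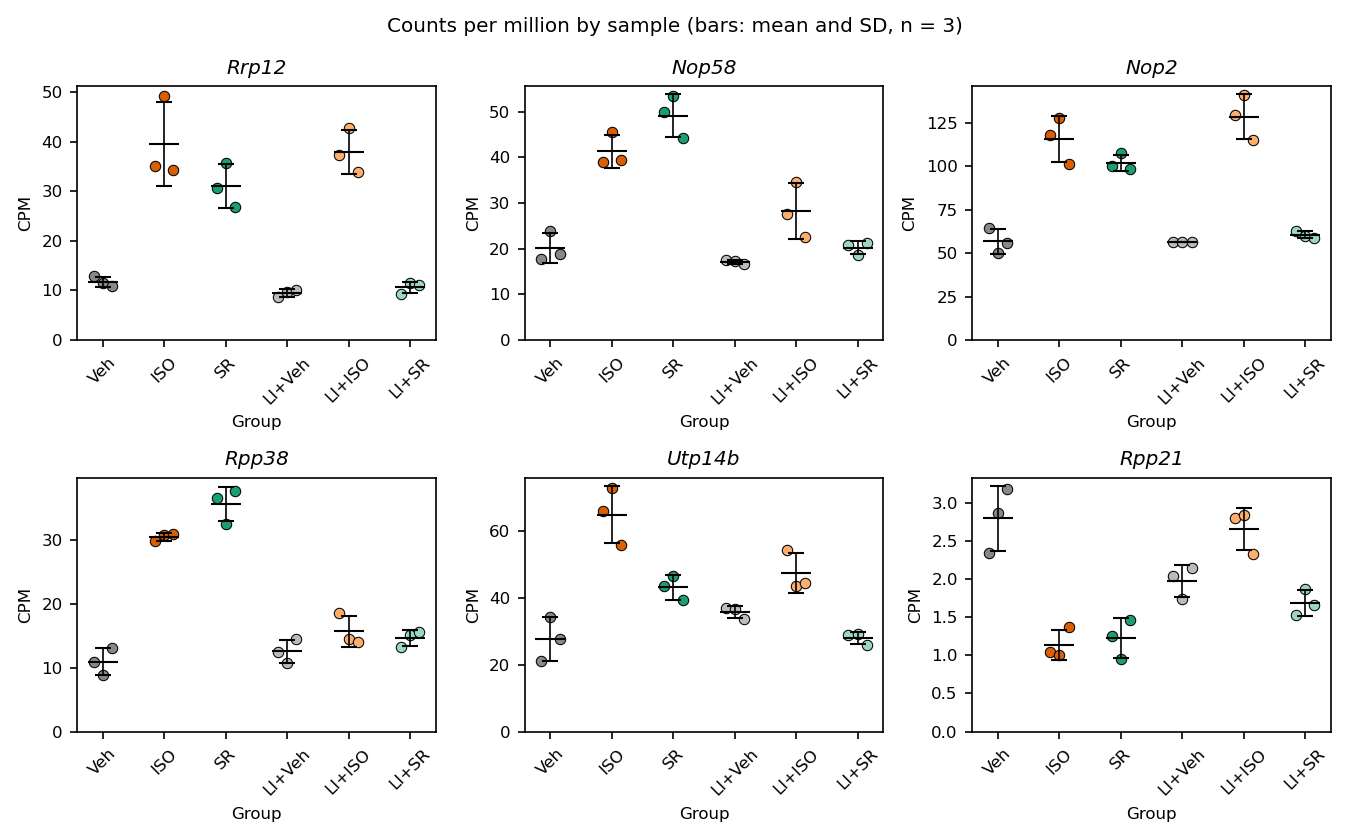
Points are CPM of single samples of Rrp12, Nop58, Nop2, Rpp38, Utp14b and Rpp21 in the 6 groups (Veh, Vehicle; SR, SR-3420; LI, lipase inhibitors), with bars for the mean and SD of 3 samples and each vertical axis starting at 0. Rrp12 and Nop2 stayed high with ISO under inhibitors, at 38.0 and 129 CPM on average, whereas Rpp38 stood at 15.7 CPM there against 30.5 CPM with ISO alone.

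The sequence upstream of the start is shown for 3 of these genes, because they rose most with SR-3420 and differ in what ISO did under inhibitors. Each is the 300 bases before the annotated start in build mm9, read 5′ to 3′ on the gene's strand. Capitals mark the E-box CACGTG, which Myc with Max is known to bind, and TGACG or its reverse complement CGTCA, the core of the cAMP response element.
Rrp12, chr19:41970644-41970943, minus strand: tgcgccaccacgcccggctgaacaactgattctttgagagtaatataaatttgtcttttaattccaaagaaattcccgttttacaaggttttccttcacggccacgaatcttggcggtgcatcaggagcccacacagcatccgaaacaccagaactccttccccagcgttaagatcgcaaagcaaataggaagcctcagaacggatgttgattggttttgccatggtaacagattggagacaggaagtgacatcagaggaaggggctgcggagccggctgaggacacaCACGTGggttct
Nop58, chr1:59741550-59741849, plus strand: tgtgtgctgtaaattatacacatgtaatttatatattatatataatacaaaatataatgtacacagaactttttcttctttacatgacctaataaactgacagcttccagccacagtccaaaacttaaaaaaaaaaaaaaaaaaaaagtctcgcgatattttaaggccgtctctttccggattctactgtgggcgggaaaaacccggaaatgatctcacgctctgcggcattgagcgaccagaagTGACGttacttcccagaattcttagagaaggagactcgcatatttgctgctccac
Rpp38, chr2:3249901-3250200, minus strand: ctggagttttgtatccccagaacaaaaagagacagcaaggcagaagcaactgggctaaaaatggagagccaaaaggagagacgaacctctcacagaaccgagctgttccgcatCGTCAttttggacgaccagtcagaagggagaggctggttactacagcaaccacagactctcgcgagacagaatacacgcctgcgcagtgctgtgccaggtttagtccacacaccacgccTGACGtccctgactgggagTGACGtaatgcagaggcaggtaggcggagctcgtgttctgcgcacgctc
The Rrp12 window holds an E-box 12 bases before the start and no TGACG. The Nop58 window holds 1 TGACG and the Rpp38 window 3 copies of the core, and neither holds an E-box.

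Both strands of the same window were searched in all genes. The E-box was in 7 of 55 tested members (12.7%) and in 9.55% of the windows of all tested genes. Besides Rrp12, it lay at most 60 bases before the start in Fbl, Utp18, Nol11 and Nop2. Fbl was not called in any comparison, while Nol11 was higher with both stimuli and with ISO under inhibitors.
Nop2, chr6:125081811-125081876, plus strand: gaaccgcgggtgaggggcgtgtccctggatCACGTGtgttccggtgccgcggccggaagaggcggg
Fbl, chr7:28954724-28954766, plus strand: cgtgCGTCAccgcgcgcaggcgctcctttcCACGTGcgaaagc
Utp18, chr11:93747081-93747130, minus strand: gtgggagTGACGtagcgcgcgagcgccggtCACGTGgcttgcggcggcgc
Nol11, chr11:107050703-107050768, minus strand: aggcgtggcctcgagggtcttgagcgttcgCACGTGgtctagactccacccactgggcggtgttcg
The full element TGACGTCA was in 0 of 55 windows of tested members and in 2.98% of all tested genes, and TGATGCAA, a C/EBP-ATF element, in 0 and 0.609%. The shorter TGACG, searched after these windows had been seen, was in 22 of 55 (40%), beside 29.9% of all tested genes. It was in 15 of the 33 members called higher with ISO, 16 of the 30 with SR-3420 and 17 of the 36 with ISO under inhibitors. It was also in 11 of the 17 whose SR-3420 interaction was lower. Of the 11 members called higher with neither stimulus nor with ISO under inhibitors, 2 held it. The E-box was in 4 of the 33, 2 of the 17 and 1 of the 11. The median number of CG pairs in the window was 19 in the 33 members, 22 in the 17, 14 in the 11 and 18 in all tested genes, and its part in these shares was not tested. These matches describe letters and show no binding.

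Among the members, the RNA polymerase I subunits Polr1a to Polr1e rose by at most 0.67 on the log2 scale. Polr1a, the largest subunit, measured 74.1, 70.6 and 78.6 CPM in Vehicle, 98.4, 103 and 97.2 CPM in ISO, and 84.4, 92.1 and 86.0 CPM in SR-3420. The groups did not overlap, and the log2 change was 0.42 ± 0.07 (SE) after ISO (adjusted p = 2e-05, edgeR) and 0.23 ± 0.07 after SR-3420. Under inhibitors it rose by 0.43 ± 0.07 with ISO and changed by -0.01 ± 0.07 with SR-3420. Polr1b, the next largest, rose by 0.42 ± 0.13 with ISO, with an adjusted p of 0.0108 (edgeR) that was 0.125 without ISO replicate 2. Under total counts alone the log2 change with ISO was 0.11 for Polr1a and 0.11 for Polr1b, that of Polr1a with SR-3420 was 0.07, and none of these was called. Polr1c and Polr1d, shared with RNA polymerase III, changed by 0.07 ± 0.16 and 0.17 ± 0.11 with ISO, and rose by 0.66 ± 0.16 and 0.54 ± 0.11 with ISO under inhibitors. The interaction of Polr1c, 0.59 ± 0.23, had an adjusted p of 0.0498 (edgeR), which exceeded 0.05 in 12 of 18 fits without 1 library and was 0.064 with DESeq2. Polr1e rose by 0.60 ± 0.16 with SR-3420 and by 0.67 ± 0.16 with ISO under inhibitors. The nucleolar proteins Ncl and Npm1 rose by 0.43 ± 0.09 and 0.32 ± 0.07 with ISO and by 0.45 ± 0.09 and 0.50 ± 0.07 with ISO under inhibitors. When total counts alone set the scale their change with ISO was 0.13 and 0.01, not called.

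Myc, at chr15:61816896-61821916 on the plus strand of mm9, took another course. It measured 82.0, 80.4 and 74.2 CPM in Vehicle, 92.8, 109 and 98.8 CPM in ISO, and 160.4, 149.5 and 153 CPM in SR-3420. Under inhibitors it measured 88.2, 83.1 and 90.8 CPM with Vehicle, 54.8, 60.4 and 47.0 CPM with ISO, and 118, 119 and 123 CPM with SR-3420. SR-3420 samples were the highest in either setting, and ISO samples lay above Vehicle without inhibitors and below it with them. The log2 change was 0.34 ± 0.08 (SE) after ISO (adjusted p = 0.0011, edgeR) and 0.97 ± 0.08 after SR-3420. Scaled by total counts only, the change with ISO was 0.04 and was not called. Under inhibitors Myc fell by 0.70 with ISO and rose by 0.46 ± 0.08 with SR-3420, as log2 changes. The interaction was -1.04 ± 0.12 for ISO (adjusted p = 3.65e-07, edgeR) and -0.51 ± 0.11 for SR-3420. With ISO under inhibitors Myc was lower while 36 other members were higher, and with SR-3420 under inhibitors Myc alone was higher.

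**Figure D5:**
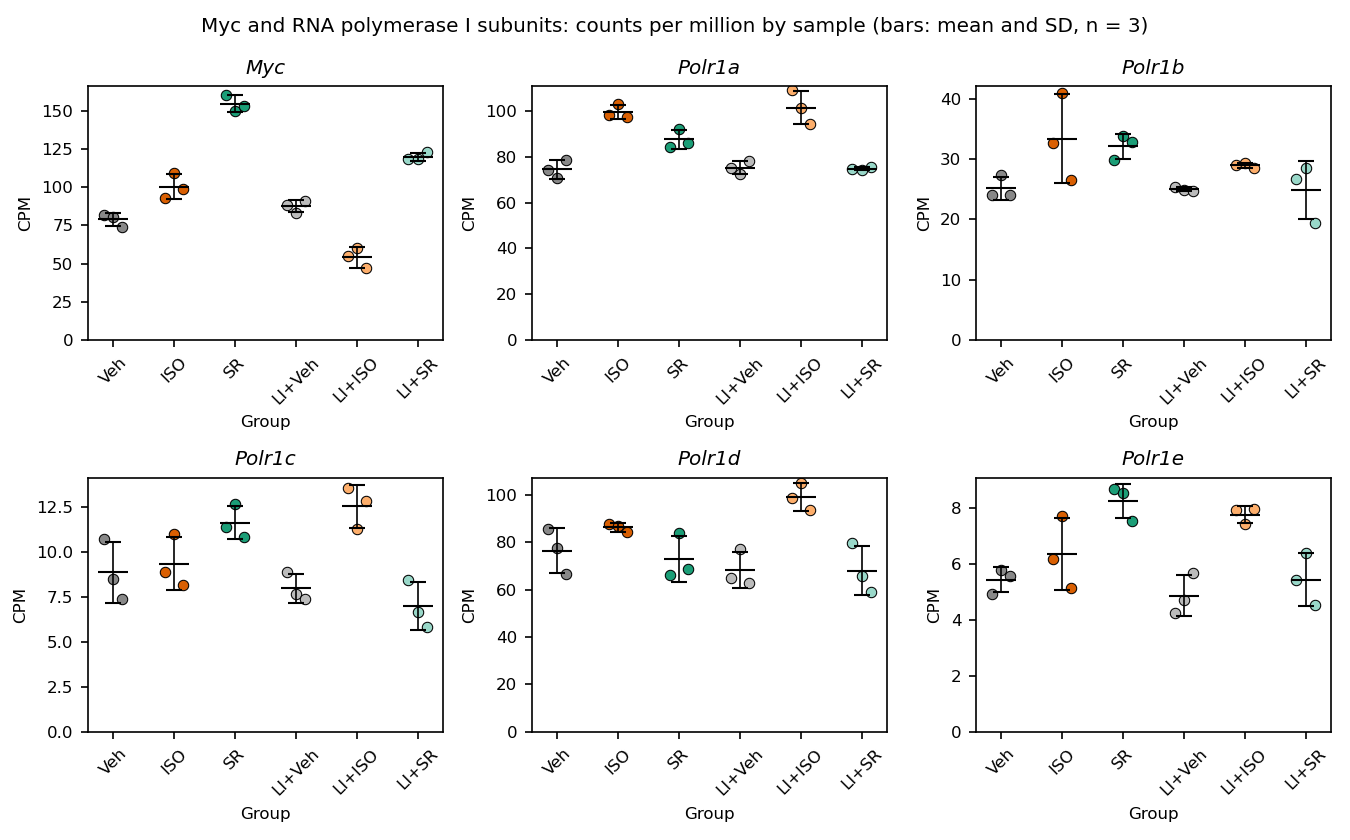
Points are CPM of single samples of Myc and of Polr1a to Polr1e in the 6 groups (Veh, Vehicle; SR, SR-3420; LI, lipase inhibitors), with bars for the mean and SD of 3 samples and each vertical axis starting at 0. Myc averaged 154 CPM with SR-3420 and 54.1 CPM with ISO under inhibitors, while Polr1a stayed between 70.6 and 109 CPM in all samples.

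Other genes of the pathway that the symbol rule leaves out were read from a list of 77, also chosen with earlier results known. Of these, 75 were in the table and all 75 were tested. With ISO 54 were higher and 2 lower, where 26.8% and 25.0% of all tested genes were. With SR-3420 50 were higher and 3 lower, beside 26.0% and 25.4%. With ISO under inhibitors 55 were higher and 1 lower, beside 29.4% and 28.3%, and with SR-3420 under inhibitors 1 was higher, beside 2.99%. Counts and changes in this paragraph and the next are under TMM scaling only. Total counts alone was not tried on these lists, and for the members it lowered the count higher with ISO from 33 to 14. Of 24 small subunit factors 20 were higher after ISO and 17 after SR-3420, and 0 were lower. Bysl, which acts late in small subunit assembly, changed by 1.03 with ISO, 0.79 with SR-3420, 1.14 with ISO under inhibitors and -0.07 with SR-3420 under inhibitors. Of 32 large subunit factors 25 were higher after ISO and 23 after SR-3420, and 0 were lower. Among them were Nmd3, the export adaptor of the large subunit, at 1.45 after ISO and 1.36 after SR-3420, and the nucleolar GTPase Gnl3 at 1.60 and 1.33. Under inhibitors with ISO, Nmd3 kept 1.02 and Gnl3 0.44, and the ISO interaction was called for Gnl3 at -1.16 and not for Nmd3 at -0.43 (adjusted p = 0.119, edgeR).

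Of 11 factors that direct RNA polymerase I or belong to it, 6 were higher and 1 lower with ISO, beside 26.8% and 25.0% of all tested genes. With SR-3420, 7 were higher and 1 lower, beside 26.0% and 25.4%. Rrn3, which readies the polymerase for initiation, rose by 0.54 with ISO, 0.27 with SR-3420 and 0.74 with ISO under inhibitors. Taf1d, a subunit of the promoter selectivity factor, rose by 1.22 after ISO and 1.89 after SR-3420, and changed by 0.13 with ISO under inhibitors. Ubtf, which binds the ribosomal DNA promoter, fell by 0.47 with ISO and changed by -0.08 with SR-3420. A separate list held the Myc network, of which 7 genes were tested. Max, the partner of Myc, rose with both stimuli, at 0.34 and 0.44. The other 6 were lower with ISO, as were 25.0% of all tested genes. Among them were Mxd4, at -1.42, and Mnt, at -0.72, which compete with Myc for Max. Mxd1, of the same family, changed by -0.52 with ISO, 0.32 with SR-3420 and -2.30 with ISO under inhibitors, each called, with an ISO interaction of -1.77. All values in this and the preceding paragraph are log2 changes.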

How the data were processed

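RNA-seq of 18 samples of differentiated BAT-LgT brown adipocytes was used, 3 in each of 6 groups taken from the labels. The authors aligned TruSeq reads to mm9 with STAR 2.4.2a, built HOMER tag directories keeping 1 read per position and length, and deposited raw counts per RefSeq gene made with iRNA-seq. Whether strand was used is not given in the sources used here. Genes were tested with the quasi-likelihood test of edgeR 4.0.16 (R 4.3.3) on the deposited counts, after TMM scaling and a filter with a minimum count of 10, with 1 model of all 6 groups and Benjamini-Hochberg adjustment over 12156 genes. The 2-fold rule added a log2 change of at least 1. On simulated counts for ISO against Vehicle with 12034 genes tested, 197 of 200 genes changed 2-fold were recovered (98.5%) and 11 others were called. The changed genes were drawn only from those with higher counts, and the simulated spread followed a trend over all genes. The share recovered therefore does not cover smaller changes or genes with few counts. Totals of 4263755 to 21205032 counts set the precision.

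The members, roles and lists were chosen with earlier results of these data known. Named genes were a fixed list (Polr1a to Polr1e, Myc, Fbl, Ncl, Npm1, Nop56, Nop58, Dkc1, Gar1, Pes1, Bop1, Utp14a, Utp14b and Rpp38), plus up to 3 members per direction and comparison with the largest change among those called, at a mean log2 CPM of at least 0 and moving one way in all same-numbered samples. Alternatives were DESeq2 1.42.0, other scalings and filters, only the groups compared, a replicate block, and leaving out each library, Lars2 or members that overlap another gene. Upstream windows of 300 bases were read from mm9.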

Additional observations from a re-analysis of the deposited data

Results flagged for a closer look

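Members whose response to a stimulus differed with and without lipase inhibitors, by the interaction term in edgeR, are given here by their log2 interaction, 14 for ISO and 17 for SR-3420. For ISO it was -1.18 for Rpp38, -1.04 for Myc, -0.84 for Utp14b, -0.82 for Nol8, -0.51 for Utp15 and -0.47 for Utp14a, each lower with inhibitors. It was 0.28 for Nop10, 0.51 for Pes1, 0.59 for Polr1c, 0.68 for Rpp25l, 0.43 for Rrp7a, 0.48 for Imp3, 0.78 for Rrp36 and 1.70 for Rpp21, each higher with inhibitors. The call was lost in 12 of 18 fits that left out 1 library for Polr1c, in 6 for Nop10 and in 3 each for Pes1 and Utp14a.

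For SR-3420 it was -1.50 for Rpp38, -1.25 for Rrp12, -1.02 for Nop58, -1.02 for Utp14b and -0.78 for Utp14a. It was -0.74 for Nop2, -0.60 for Utp3, -0.57 for Nop56, -0.51 for Myc and -0.47 for Ncl. These 10 were lower with inhibitors, and each call held in all 18 fits that left out 1 library. The other seven, for which such fits are not given here, were Nop14 at -0.83, Nol8 at -0.81, Utp15 at -0.77, Rrp8 at -0.58, Nol10 at -0.54, Rrp15 at -0.54 and Nip7 at -0.52.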

How the results depend on the processing

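With total counts alone, 14 members were higher and 13 lower with ISO, 19 higher with SR-3420, 20 higher with ISO under inhibitors, 0 higher with SR-3420 under inhibitors, and 2 higher and 7 lower with ISO against SR-3420. By the 2-fold rule the counts, higher then lower, were 5 and 1 for ISO, 3 and 1 for SR-3420, 3 and 1 with ISO under inhibitors, 0 higher with SR-3420 under inhibitors, 0 and 0 for ISO against SR-3420, 1 and 2 for the ISO interaction, 4 lower for the SR-3420 interaction, and 2 and 0 for the difference between the interactions. Of all 12156 tested genes, 149 were higher and 99 lower by this rule for ISO against SR-3420. These were 355 and 540 for the difference between the interactions, and 26 and 10 with SR-3420 under inhibitors. Leaving out 1 library at a time gave 28 to 34 higher and 3 to 5 lower for ISO, 24 to 31 and 3 to 7 for SR-3420, 0 to 1 and 0 to 0 with the inhibitors alone, 31 to 38 and 4 to 4 with ISO under inhibitors, and 1 to 1 and 0 to 0 with SR-3420 under inhibitors. It gave 4 to 12 and 5 to 8 for the ISO interaction, 0 to 1 and 16 to 20 for that of SR-3420, 2 to 10 and 2 to 4 for ISO against SR-3420, and 17 to 24 and 2 to 3 for the difference between the interactions. Of the 12244 to 12273 genes tested in these fits, 2981 to 3296 were higher and 2614 to 3110 lower for ISO. For SR-3420 these were 2815 to 3221 and 2596 to 3150, and with ISO under inhibitors 3245 to 3663 and 3064 to 3494. For the ISO interaction they were 1528 to 1929 and 1784 to 2084, and for that of SR-3420 1222 to 1596 and 1569 to 1832. ISO against SR-3420 gave 1401 to 2004 and 1164 to 1784.

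Of 95 values of named genes, 0 changed sign in any alternative. Only values called by edgeR under TMM scaling entered this count, which made a change of sign unlikely beforehand. Calls were lost for 25 with total counts alone, 5 with only the groups compared, 2 with DESeq2, 2 without the filter, 1 with RLE size factors and 1 of 92 with a minimum count of 50. By the stricter 2-fold rule 74 of the 95 were lost. Over all fits that left out 1 library, 91 of 1710 calls were lost. None was lost without Lars2 or, of 80, without members overlapping another gene. Causes were not tested.

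With the replicate block, 34 members were higher and 5 lower for ISO, 31 and 7 for SR-3420, 0 and 0 with the inhibitors alone, 39 and 4 with ISO under inhibitors, 1 and 0 with SR-3420 under inhibitors, 11 and 7 for the ISO interaction, 0 and 24 for that of SR-3420, 12 and 4 for ISO against SR-3420, and 24 and 3 for the difference between the interactions. Of all 12156 tested genes, the block called 3506 higher and 3347 lower for ISO, and 3394 and 3356 for SR-3420. Counts were 147 and 122 with the inhibitors alone, 3805 and 3694 with ISO under inhibitors, and 577 and 275 with SR-3420 under inhibitors. For the ISO interaction they were 2245 and 2351, and for that of SR-3420 1949 and 2177. ISO against SR-3420 gave 2274 and 2102, and the difference between the interactions 2458 and 2343. Samples with the same number correlated by -0.0118, 0.150 and 0.190 on average for numbers 1, 2 and 3, against -0.0548 for different numbers, and 12 of 18 correlated best with their own number. The 15 pairs of number 1 ranged from -0.114 to 0.166 and those of numbers 2 and 3 from 0.0746 to 0.280. Samples of numbers 2 and 3 thus deviated together and those of number 1 did not, and as not every pair exceeded 0.1 the block was kept as an alternative.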
